A study of Mus musculus with 6 samples.

Results

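The 4 genes *Camk2a*, *Camk2b*, *Camk2d* and *Camk2g* encode the alpha, beta, delta and gamma subunits of calcium/calmodulin-dependent protein kinase II (CaMKII). They were chosen by their symbols, and all 4 had events among the 7788 genes of the deposited array table. Together they held 36 rows, which form 18 alternative RNA events with an exclusion and an inclusion path each, of 12948 events in the table with complete intensities.

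CaMKII is a serine/threonine kinase that calcium-bound calmodulin switches on and that can then phosphorylate itself and stay active after calcium has fallen. Its subunits assemble through a C-terminal hub domain into a large holoenzyme, and a linker of variable length joins the hub to the kinase and regulatory domains. Alternative splicing alters mainly this linker, and in doing so changes the subunit's length, its location in the cell and its response to calcium. The alpha and beta subunits are very abundant in forebrain neurons, where the kinase is needed for long-term potentiation, and beta also binds actin. The delta and gamma subunits are made in many tissues, with delta prominent in heart.

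Total brain RNA came from 6 mice of a B6.CAST congenic line, 3 homozygous for the *Nxf1* CAST allele and 3 homozygous for the *Nxf1* B6 allele, with 1 Affymetrix MJAY array per animal. *Nxf1* encodes the major mRNA export factor, and the arrays asked whether its alleles alter RNA processing choices in general. Each *Nxf1* CAST animal had a same-sex littermate with the *Nxf1* B6 allele as its partner, and of these 3 pairs 2 were female and 1 male. Pair 1 was 46 days old, pair 3 was 23 days old, and in pair 2 the *Nxf1* B6 animal was 22 and the *Nxf1* CAST animal 23 days old. In a congenic line, alleles of neighbouring genes travel with the selected allele, here on chromosome 19. The CaMKII genes lie elsewhere, on chromosomes 18, 11, 3 and 14.

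The deposited table lists, path by path, an intensity for a set A and another for a set B, which the authors had pooled from the arrays. There is thus 1 value per set for each path, with no replicate error. From these intensities alone no difference below could be tested or given a p-value. The header names the sets only as A and B. Set B was likely *Nxf1* CAST, since the header defines the authors' score as mutant over wild type and that score runs as set B over set A, but the results are stated by set. The authors' scores and their q-values were not used here. The log2 ratio of an event was computed from the intensities as exclusion over inclusion in set B against the same quotient in set A, so that a value above 0 means relatively more exclusion in set B. An absolute log2 ratio over 0.5 was counted as past the threshold, a size the study's methods also use. The study required a cutoff on the false discovery rate as well, which was not applied here. Probe sets differ in brightness, so a higher intensity of another path, event or gene is not read as a higher RNA level, and differences are given between the sets for the same path.

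Marker genes of brain cells were looked up as a description of the labelled tissue, which these values cannot check, because brightness differs between probe sets. Of 11 neuronal markers 7 had an event. Among these, *Snap25*, a synaptic vesicle fusion protein, had a brightest path of 12087 in set A against 11162 in set B. *Slc17a7*, the vesicular glutamate transporter of cortical neurons, had 4522 and 4872. Over the 7 genes the brightest paths summed to 41356 in set A and 40505 in set B, with 3 genes higher and 4 lower in set B. Such sums are set mostly by the brightest probes. The 5 astrocyte markers summed to 20529 and 21866, with 4 higher and 1 lower in set B. Among them *Slc1a3*, a glutamate transporter, had 6872 and 7720, a log2 change of 0.17, and *Slc1a2*, another glutamate transporter, had 9980 and 10330, a log2 change of 0.05. *Aldh1l1*, a folate enzyme, had 416 and 357, and its log2 change of -0.22 was the largest in size of the 5. Of 5 oligodendrocyte markers 3 had an event, all lower in set B, and summed to 19863 and 18562, of which *Mbp*, the myelin basic protein gene, contributed 11314 and 10504. Of 3 microglial markers *Csf1r* alone had an event, at 434 and 459. The markers of other tissues with an event, *Myh6*, *Ins2* and *Tnnt3* (3 of 8 listed), had brightest paths between 218 and 356 over both sets. Fewer cells of a type and less RNA per cell cannot be told apart in whole brain RNA, and the part of these marker differences in the CaMKII values was not tested.

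The CaMKII events were 11 cassette exons, 3 complex events that combine several choices, 2 alternative transcript starts, 1 alternative transcript end and 1 retained intron. *Camk2d* had 6 events, *Camk2b* and *Camk2g* 5 each and *Camk2a* 2, where the median gene of the table had 1. A number in the event name was read as the length of the alternative segment, because for 93.8% of 1061 retained introns it matched the listed span within 3 bp. By this reading the CaMKII cassette exons were between 33 and 129 nt long, with a median of 55 nt against 101 nt over all cassette exons. The length was a multiple of 3 in 9 of the 11, against 53.2% of all 3738 cassette exons that carry a length. Inclusion of such a length keeps the reading frame if the exon is coding and holds no stop codon, which was not checked. The 11 exons lie in related genes and are not independent. *Camk2a*, *Camk2b* and *Camk2g* each listed a cassette exon of 33 nt. Positions are given as in the table, which names no genome assembly. They are spans of whole events and not of the alternative exon, so the 129 nt exon of *Camk2b* has a listed span of 6785 bp.

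**Figure D1:**
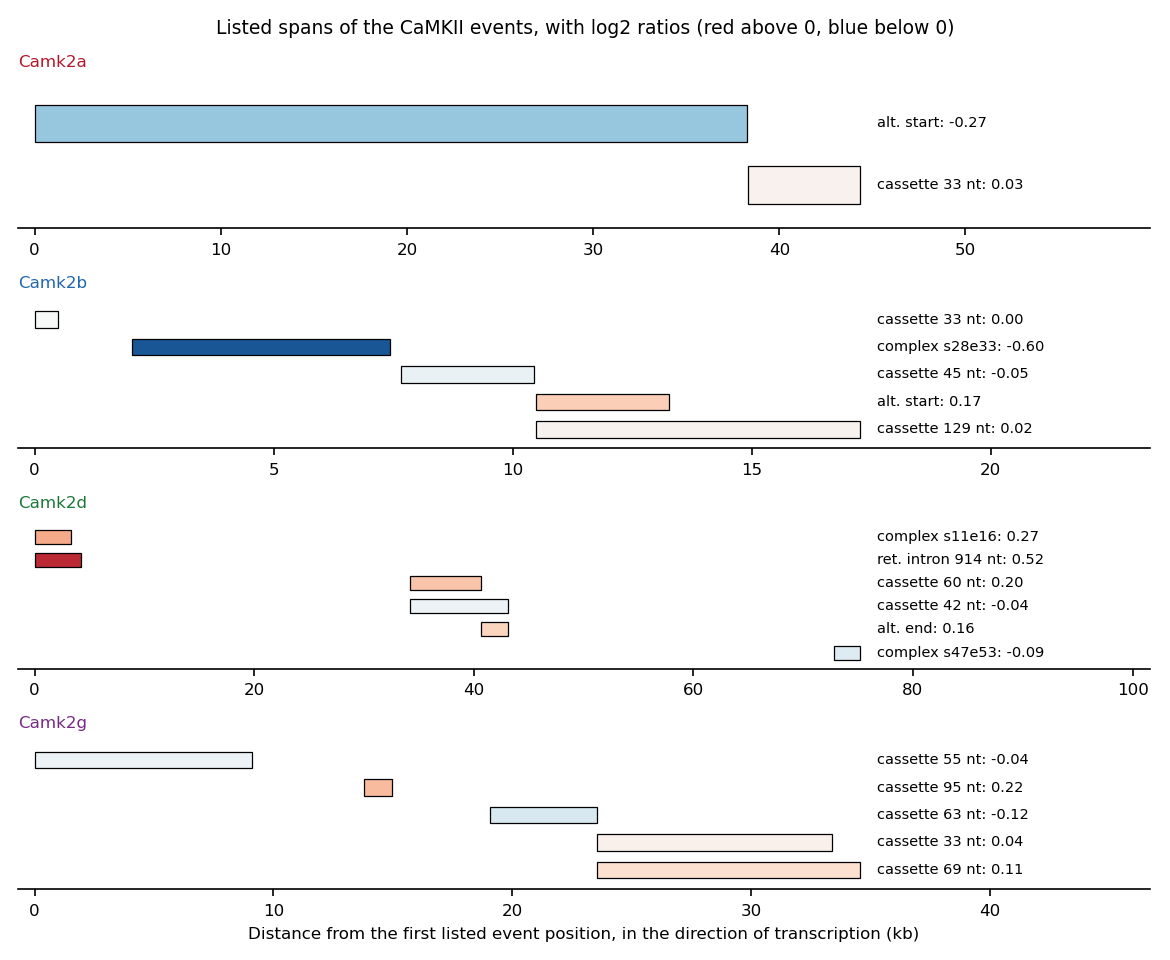
Listed spans of the 18 CaMKII events by gene, with distance in kb from the first listed position in the direction of transcription on the x axis, and the type and log2 ratio of each event at the right. Bar colour runs from blue (below 0) to red (above 0), and the deepest colours are the complex event of *Camk2b* (-0.60) and the retained intron of *Camk2d* (0.52).

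In 16 of the 18 CaMKII events the balance of exclusion and inclusion differed between the sets by an absolute log2 ratio of at most 0.5. The log2 ratios ran from -0.60 to 0.52, with a median absolute value of 0.11, against 0.18 over all events of the table. Past the threshold were 2 of the 18 events, a complex event of *Camk2b* below 0 and the retained intron of *Camk2d* above 0, while 7.34% of all events passed it. A count of 2 in 18 stands close to that share and is no result about CaMKII as a group. After these 2 events the largest absolute ratio was 0.27. Of the 18 ratios 10 were above 0, or 55.6%, as were 55.5% of all events. With the median of the event type subtracted 7 were above 0, where centring sets the share of all events at 50%, and with 50 added to each intensity 12 were, as were 55.8% of all events. The ratios that changed sign were close to 0. All 11 cassette exons stayed within the threshold, between -0.12 and 0.22, with a median absolute ratio of 0.04. Over the 3763 cassette exons of the table the median was 0.19 and 8.56% passed. That none of the 11 passed stands close to this share and is no result about the CaMKII cassette exons. The 11 exons lie in 4 genes and some share splice sites, so they are not 11 independent measurements. Nor were the medians above compared at matched brightness. CaMKII path intensities ran from 58 to 12736, where the median intensity over all events was 294. Whether brightness has a part in the smaller CaMKII medians was not tested.

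**Figure D2:**
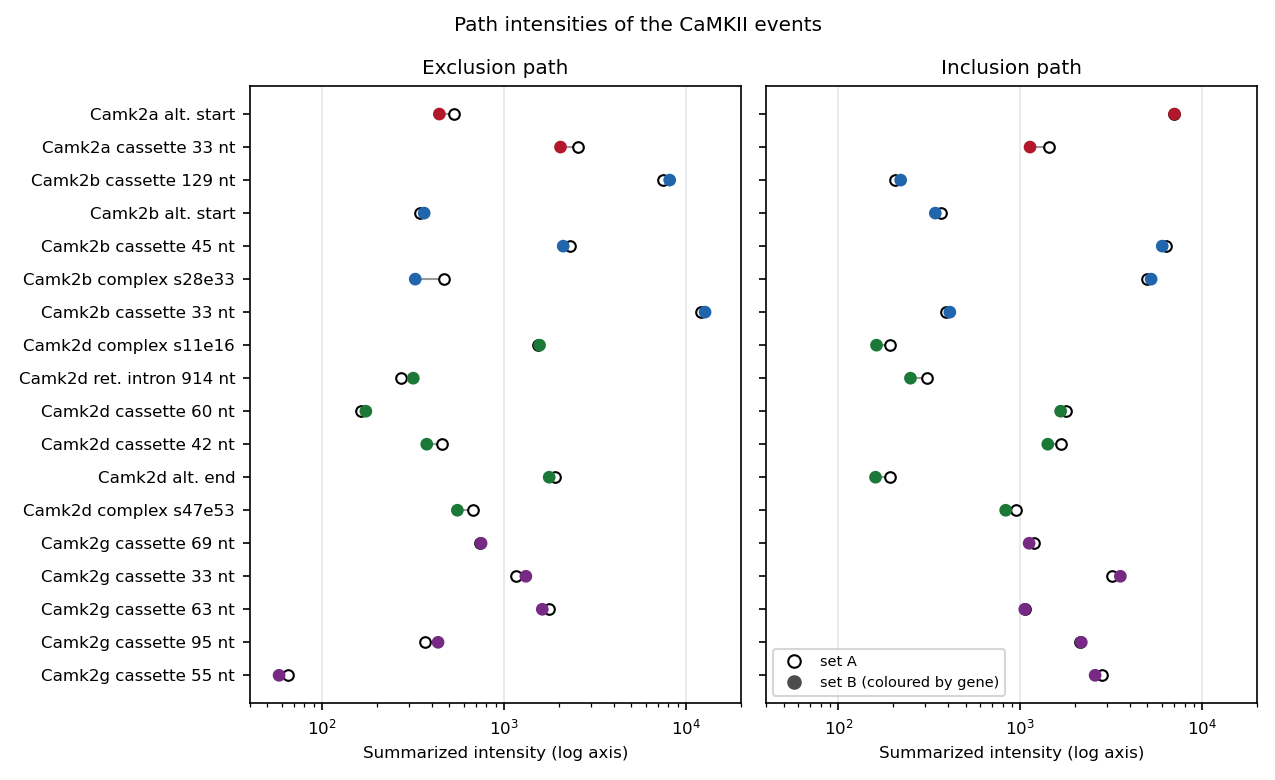
Summarized intensities of the exclusion path (left) and the inclusion path (right) of each CaMKII event on a log axis, with open circles for set A and filled circles, coloured by gene, for set B. Circles of a pair lie close together for most paths, and the widest gap is the exclusion path of the *Camk2b* complex event, 468 in set A and 325 in set B.

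*Camk2b* held the CaMKII event with the largest absolute log2 ratio. This complex event spans 5882741 to 5888124 on chromosome 11, minus strand. Its exclusion path had an intensity of 468 in set A and of 325, 30.6% lower, in set B, whereas its inclusion path had 4973 and 5238. The log2 ratio was -0.60, with less exclusion in set B, and it lay past -0.5 along with 2.47% of the 1253 complex events. In absolute value, 8.38% of complex events were past 0.5. The absolute ratio of the *Camk2b* event was larger than that of 96.6% of all events. The difference sat in the exclusion path, whose log2 change of -0.53 was the largest of all 36 CaMKII path intensities, while the inclusion path differed by 0.07. Rounding of the intensities to whole numbers leaves the ratio between -0.605 and -0.597, and this range covers rounding only.

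The other events of *Camk2b* had log2 ratios between -0.05 and 0.17. A 33 nt cassette exon (chromosome 11, 5889671 to 5890165) had exclusion intensities of 12137 (set A) and 12736 (set B) and inclusion intensities of 390 and 410. Both paths were about 5% higher in set B (4.94% and 5.13%), and the log2 ratio was -0.0026, the smallest in size of any CaMKII event. The 45 nt cassette exon (5879724 to 5882503), which follows the complex event in the direction of transcription, had exclusion intensities of 2294 and 2115 and inclusion intensities of 6332 and 6026, for a ratio of -0.05.

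The 129 nt cassette exon of *Camk2b* (5872891 to 5879675) had exclusion intensities of 7466 (set A) and 8141 (set B) and inclusion intensities of 205 and 220, for a log2 ratio of 0.02. An alternative start (5876896 to 5879675) lies inside the listed span of that cassette event and shares an end with that span. The exclusion intensities of the start were 346 and 364 and its inclusion intensities 365 and 341, for a ratio of 0.17. This was near the middle of all alternative starts, whose median absolute ratio was 0.16. Of the 10 path intensities of *Camk2b*, 6 were higher and 4 lower in set B, with a median log2 change of 0.07.

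The retained intron of *Camk2d* was the second event past the threshold. It is listed at 126470497 to 126474691 on chromosome 3, plus strand, a span of 4195 bp, although the number in its name is 914, so it is an exception to the match between name and span. The exclusion path, the spliced form, had an intensity of 272 in set A and 317 in set B. The inclusion path, which holds the intron, had 307 in set A and 249 in set B. The 2 paths thus moved in opposite directions by similar amounts, with log2 changes of 0.22 and -0.30, and the spliced form was relatively brighter in set B. The log2 ratio was 0.52, between 0.51 and 0.53 by rounding, and 6.48% of the 1064 retained introns of the table exceeded 0.5. It is a marginal case. With 50 added to each intensity the ratio was 0.44, and with the median of all retained introns subtracted it was 0.47, both under the threshold.

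A complex event of *Camk2d* (126470477 to 126473769) covers most of the same span, with 3273 bp in common, and had a ratio of the same sign. Its exclusion path stood at 1545 in set A against 1568 in set B, nearly equal, and the inclusion path at 192 and 162, for a log2 ratio of 0.27. Since the listed spans overlap, these 2 events are not counted as separate observations of the region. The name of the retained intron gives 914 nt, so whether that intron lies in the shared part is not known.

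Further along *Camk2d*, 3 events share ends. The 60 nt cassette exon (126504679 to 126511125) had exclusion intensities of 163 (set A) and 174 (set B) and inclusion intensities of 1793 and 1666, for a log2 ratio of 0.20. The 42 nt cassette exon (126504679 to 126513556) had exclusion intensities of 456 and 376 and inclusion intensities of 1671 and 1416, for a ratio of -0.04. Here both paths were lower in set B, by 17.5% and 15.3%, so their balance was nearly the same. The alternative end (126511167 to 126513556) had exclusion intensities of 1905 and 1771 and inclusion intensities of 192 and 160, for a ratio of 0.16.

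The last event of *Camk2d* in the direction of transcription, a complex event at 126543263 to 126545696, had exclusion intensities of 673 (set A) and 554 (set B) and inclusion intensities of 947 and 831, for a log2 ratio of -0.09. In each of the 6 *Camk2d* events the inclusion intensity was lower in set B, with log2 changes from -0.30 to -0.11, whereas the exclusion intensity was lower in 3. Over all events with an exclusion path, the inclusion intensity was lower in set B in 53.0%. Some *Camk2d* events share sequence, and the 6 inclusion values have no error of their own.

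*Camk2a* had an alternative start and a cassette exon of 33 nt on chromosome 18. The alternative start, which spans 38.3 kb, had exclusion intensities of 530 (set A) and 441 (set B) and inclusion intensities of 7023 and 7041. Its log2 ratio of -0.27 was the third in size among the CaMKII events. The exclusion path was 16.8% lower in set B, and the inclusion path differed by 0.256%. At the cassette exon the exclusion intensities were 2545 and 2044 and the inclusion intensities 1437 and 1131. Both paths were lower in set B, by 19.7% and 21.3%, and the ratio was 0.03. The *Camk2a* paths therefore gave no common level difference between the sets, since the inclusion path of the start was nearly equal in both sets and the other 3 paths were lower in set B.

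*Camk2g* listed cassette exons only, on the minus strand of chromosome 14. The first in the direction of transcription, 55 nt (21589331 to 21598446), had exclusion intensities of 65 (set A) and 58 (set B) and inclusion intensities of 2812 and 2577, for a log2 ratio of -0.04. An intensity of 58 is near the lowest of the table, with 0.245% of all intensities below it, so this ratio rests on a dim exclusion path, and rounding alone leaves it between -0.0626 and -0.0144. The 95 nt exon (21583470 to 21584638) had exclusion intensities of 367 and 434 and inclusion intensities of 2137 and 2164. Its ratio of 0.22 was the largest of *Camk2g* and came from the exclusion path, which was 18.3% higher in set B. The lengths of these 2 exons are the ones that are not multiples of 3.

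The remaining *Camk2g* exons had ratios smaller in size than that of the 95 nt exon. The 63 nt exon (21574904 to 21579386) had exclusion intensities of 1765 (set A) and 1623 (set B) and inclusion intensities of 1060 and 1058, for a log2 ratio of -0.12. The 33 nt exon (21565082 to 21574880) had exclusion intensities of 1163 and 1319 and inclusion intensities of 3209 and 3548, with both paths higher in set B and a ratio of 0.04. The listed span of the 69 nt exon (21563870 to 21574880) shares an end with that of the 33 nt exon. The 69 nt exon had exclusion intensities of 739 and 748 and inclusion intensities of 1193 and 1118, for a ratio of 0.11. Over the 10 path intensities of *Camk2g*, 5 were lower and 5 higher in set B, with a median log2 change of 0.01.

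**Figure D3:**
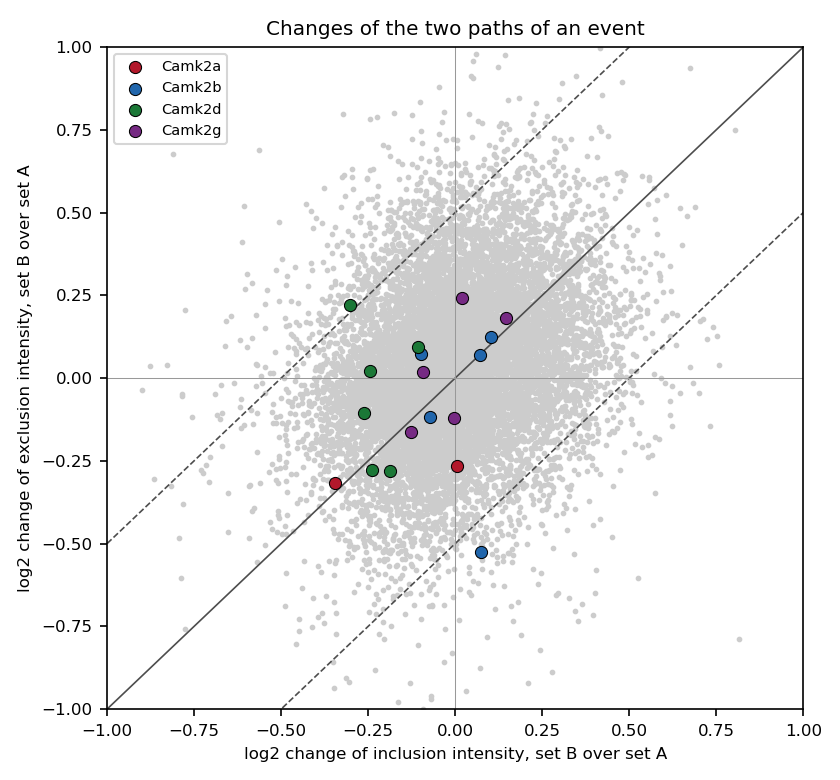
Log2 change of the exclusion intensity (y axis) against that of the inclusion intensity (x axis), set B over set A, for the CaMKII events (coloured by gene) and for all events with an exclusion path (grey, with 15 of 12560 outside the axes). The solid diagonal marks an equal change of both paths and the dashed lines a log2 ratio of 0.5 in either direction; the *Camk2b* complex event lies below the lower dashed line and the *Camk2d* retained intron just above the upper dashed line.

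Taken path by path, 21 of the 36 CaMKII intensities were lower in set B, with a median log2 change of -0.10, while over all events 49.8% of path intensities were lower and the median change was 0.00. In 7 of the 18 events both paths were lower in set B, in 4 both were higher, and in 7 the paths differed in direction. For all events with an exclusion path, both were lower in 29.6% and both higher in 29.0%. By gene, the median log2 change of the path intensities was -0.29 for *Camk2a* and -0.21 for *Camk2d*, and 0.07 and 0.01 for *Camk2b* and *Camk2g*. These medians cover 4 to 12 paths that share exons, so they describe the pooled values and are no measure of expression.

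Among complex events of other genes, *Klk6* and *Nrxn3* were among those with intensities most like the *Camk2b* event, judged by the mean absolute difference over the 4 log2 intensities. Neither was close, since these differences, which depend on probe brightness, were 0.61 and 0.62, and their log2 ratios were 0.11 and 0.04. Likeness over samples could not be measured with 1 value per set.

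The genes that act on or with CaMKII were taken from 3 lists with 58 genes, of which 36 had an event with intensities, 63 events in all. In these lists 3 events passed the threshold, 2 above 0 and 1 below, or 4.76% of their events against 7.34% of all events. The median absolute ratio was 0.17, against 0.18 over all events and 0.11 for CaMKII.

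Among activators and related kinases, 10 of 16 genes had an event. Of calmodulin, the calcium sensor that activates the kinase, only *Calm2* was represented, by a cassette exon with exclusion intensities of 154 in set A and 138 in set B, inclusion intensities of 5222 and 5780, and a log2 ratio of -0.30. Past the threshold was 1 of 20 events, an alternative end of *Dclk2*, a doublecortin-like kinase of the same kinase group. Its exclusion intensities were 522 (set A) and 524 (set B) and its inclusion intensities 562 and 382, for a ratio of 0.56 that came from the inclusion path. An alternative end of *Camk1*, which encodes calcium/calmodulin-dependent kinase I, had exclusion intensities of 518 and 504 and inclusion intensities of 180 and 234, for a ratio of -0.42.

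Among inhibitors and phosphatases 7 of 13 genes had an event, and none of their 10 events passed the threshold. The CaMKII inhibitor genes *Camk2n1* and *Camk2n2* had no event. The largest absolute ratios were in *Ppp1r9a*, which encodes neurabin, an actin-binding protein that targets protein phosphatase 1. Its alternative end had exclusion intensities of 732 (set A) and 695 (set B) and inclusion intensities of 191 and 242, for a log2 ratio of -0.42, and its complex event had a ratio of -0.41. *Ppp3ca*, a catalytic subunit of the phosphatase calcineurin, followed with an alternative start at -0.17, from exclusion intensities of 230 and 201 and inclusion intensities of 4534 and 4449.

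Among binding partners and substrates, 19 of 29 genes had an event, 33 events in all, and 2 of these passed. An alternative start of *Shank3*, a scaffold of the postsynaptic density, had exclusion intensities of 428 (set A) and 504 (set B) and inclusion intensities of 788 and 613, for a log2 ratio of 0.60. An alternative end of *Cacnb1*, a beta subunit of voltage-gated calcium channels, had exclusion intensities of 1628 and 1424 and inclusion intensities of 157 and 204, for a ratio of -0.57. The alternative start of *Cacnb1* had a ratio of the opposite sign, 0.45, from exclusion intensities of 272 and 372 and inclusion intensities of 1052 in both sets. The NMDA receptor subunit *Grin2b*, a main anchor of CaMKII at the synapse, had 1 cassette exon with a ratio of 0.43, from exclusion intensities of 1531 and 1572 and inclusion intensities of 1633 and 1248. *Grin1* had a cassette exon at 0.17, and the AMPA receptor subunit *Gria1*, a CaMKII substrate, had ratios of -0.08 and 0.24. *Grin2b*, *Grin1*, *Gria1* and *Calm2* are named for their roles, after their values were seen.

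**Figure D4:**
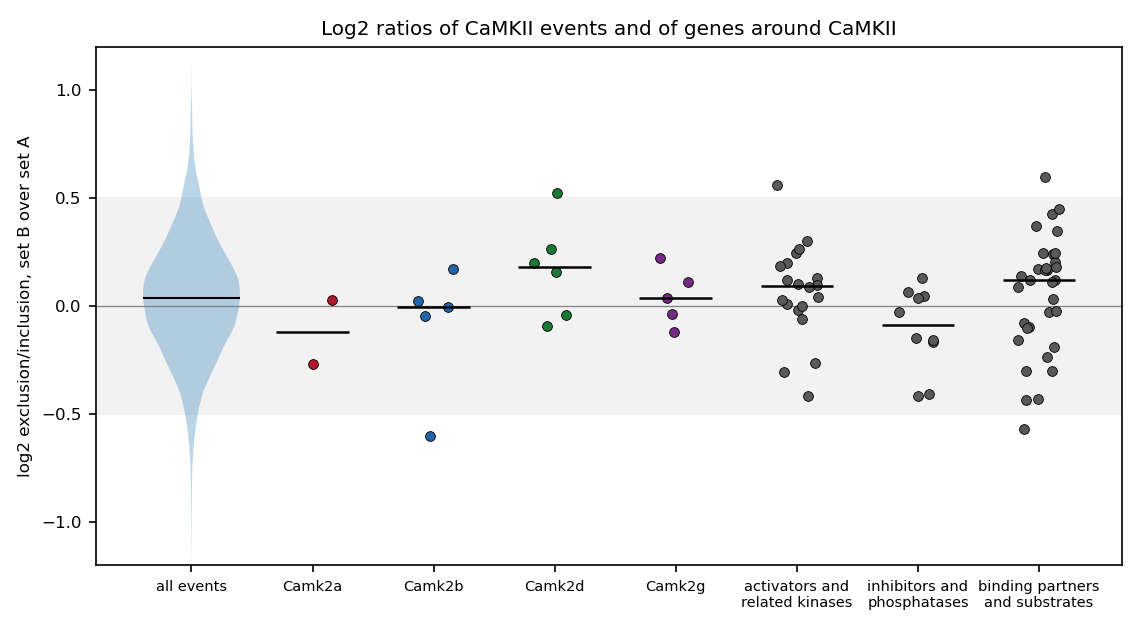
Log2 ratios of exclusion over inclusion, set B over set A (y axis), for all events of the table (violin, with 11 of 12948 events beyond the axis left out), for the events of each CaMKII gene and for the 3 lists of genes around CaMKII. Each point is an event, horizontal lines are medians and the grey band marks the threshold of 0.5; 2 CaMKII events and 3 of the listed events lie outside it.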

How the data were processed

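Brain RNA of 6 mice was hybridized to Affymetrix MJAY arrays, and the submitters' processing notes name Affymetrix Power Tools. The authors summarized the arrays into exclusion and inclusion intensities per path and pooled them per set; the deposited intensities are whole numbers on a linear scale from 43 to 13185. Array normalization, background correction and genome assembly are not given in the sources used here. The deposited table also holds the authors' scores and q-values for a paired and a standard comparison, which were not used. The intensities listed for these comparisons differed in 0 of 26304 paths. In rows of inclusion paths the 2 kinds of intensity are exchanged, so the exclusion path was taken for each event, or the path with the largest absolute ratio where there was none. Log2 ratios were computed with no pseudocount, filter or centring. No test could be computed from the values used, since they are pooled per set.

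Named genes are the CaMKII genes and, in each of 3 lists, the genes past 0.5 and the 2 with the largest absolute ratio. The events most like the *Camk2b* complex event are also named, and 1 such item is not reported here. Further, *Grin2b*, *Grin1*, *Gria1* and *Calm2* are named outside this rule, for their roles and after their values were seen. Members and lists were chosen with earlier results of these data known. Older symbols were matched through RefSeq synonyms. No sequence is shown, as no genome of a matching build was used. The ratio step was tested on simulated intensities. Python 3.11.15, numpy 2.4.6, pandas 2.3.3 and matplotlib 3.10.9 were used.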

Additional observations from a re-analysis of the deposited data

How the results depend on the processing

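The count of CaMKII events past the threshold was 1 rather than 2 with 50 added to each intensity and with the median ratio of the event type subtracted, because the retained intron of *Camk2d* then fell under 0.5; of all events 3.18% and 7.13% passed there, against 7.34%. It was 4 at a threshold of 0.25 and 0 at a threshold of 1, which 34.3% and 0.224% of all events passed. For the genes around CaMKII the count of 3 became 18 at 0.25 and 0 at 1, and it was 2 with 50 added and 4 with the type median subtracted. Taking the path with the largest absolute ratio in every event left the CaMKII count at 2, but could not have moved it. Each CaMKII event has 2 paths, which list the same intensities exchanged. The omission of events with an intensity under 100 also left the CaMKII count at 2. After that omission 17 CaMKII events remained, and 6.5% of all events passed. No CaMKII ratio moved by 0.1 or more on the log2 scale under any of these, the most being 0.08 with 50 added. Ratios of up to 0.04 in size changed sign, 2 with 50 added (the 33 nt exon of *Camk2b* and the 55 nt exon of *Camk2g*) and 3 with the type median subtracted (the 33 nt exons of *Camk2a* and *Camk2g* and the 129 nt exon of *Camk2b*). No paired analysis was possible because the deposited intensities are pooled per set and carry no pair number; for the same reason no animal could be left out. Dim paths, such as the exclusion path of the 55 nt exon of *Camk2g*, limit the precision of their ratios.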
